A study of Mus musculus with 12 samples.

Results

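RNA held on purified ribosomes was compared with total RNA in MIN6 cells depleted of Pdx1, over 6 of the 12 libraries of the series and 12643 genes. MIN6 is a mouse insulinoma line used as a model of the pancreatic beta cell, here at passage 29 in high-glucose medium. Both groups came from cells that had received an siRNA against Pdx1 by AMAXA nucleofection 72 h before harvest: the 3 IP libraries hold RNA recovered by translating ribosome affinity purification (TRAP), and the 3 total libraries hold total RNA. The other 6 libraries, IP and total RNA from cells given the control siRNA called NT, serve here as the comparison. Which ribosomal protein carried the tag, what share of the cells expressed it, the library kit and its strand are not given. Nor is it known from the labels if replicates were cultured apart, so p-values measure only the spread between libraries, which may be technical. Libraries were chosen by their titles and siRNA labels, with no use of measured values.

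In TRAP an epitope-tagged ribosomal protein is built into ribosomes, and the mRNAs those ribosomes hold are co-purified with the tag. An mRNA's ratio of IP to total RNA therefore reads how much of it is ribosome-associated relative to the other mRNAs of the same cells, not how many ribosomes it carries or how fast they move. Nuclear RNAs and free ribonucleoprotein particles are known to be held back, and mRNAs that initiate often or dock at the endoplasmic reticulum (ER) to be taken along. Pdx1 is the homeodomain transcription factor that maintains insulin gene expression and beta-cell identity.

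The 6 libraries held 29430690 to 45806807 counts over these genes, and Pearson's r between replicates was 0.991 to 0.996 across genes (log values). The level of Pdx1 itself (chromosome 5, 147270097 to 147275848) was 47.6, 57.4 and 47.9 CPM (counts relative to the library's total, scaled by edgeR's TMM factors) in the total libraries with Pdx1 siRNA against 118, 123 and 109.6 with NT siRNA. Its IP levels were 50.6, 46.8 and 39.2 CPM, overlapping the total libraries (log2 ratio −0.17, SE 0.10, edgeR adjusted p = 0.142). With library totals alone the Pdx1 ratio was −0.48 and passed (edgeR adjusted p = 0.00175), beside a shift of all genes described below. Of 25 markers of acinar, ductal, immune, endothelial and stromal cells, 24 are not among the measured genes, and the ductal keratin gene Krt7 had 98.1, 109 and 96.3 CPM in total RNA. Pdx1 total replicate 1 stood apart from the other 2 total libraries by lower levels of long mRNAs, as shown under coding length. Replicate 3 of NT IP and all 3 Pdx1 IP libraries also formed a set of their own at genes with a near-identical copy elsewhere in the genome. This set is called a mapping batch in what follows, but only as a name. The labels give no batch, and whether the mapping differed was not tested. With Pdx1 siRNA no IP library lies outside that set, so the batch and the IP cannot be told apart at any gene. With the batch as a model term 6522 genes were called, against 9490 without it. Of 37 genes without a copy that were at least 8-fold lower in IP RNA, 19 then had a log2 ratio above −1, and 13 were still called at −1 or lower. Values with the batch term are given beside many of the genes with a copy and some others.

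Ribosome-bound and total RNA differed at most genes. With edgeR's quasi-likelihood test 9490 of 12643 genes (75.1%) passed an adjusted p of 0.05, of which 4593 (36.3%) were higher and 4897 (38.7%) lower in IP RNA. A difference of at least 2-fold was seen for 861 higher genes (6.81%) and 1314 lower genes (10.4%). The median log2 ratio was −0.02, the quartiles were −0.55 and 0.48, and 5% of genes lay below −1.34 and 5% above 1.10. Only relative levels are measured, and the zero point depends on the scaling: with library totals alone, an alternative added after the data were seen, the median of all genes was −0.34, with 2567 genes higher and 6847 lower among 9414 that passed (2006 and 6588 in NT cells). Directions below are those under TMM scaling and are to be read against the median of all genes. With library totals alone the median of each list below moved down with them. Those of the other TOP mRNAs, initiation factors, ER chaperones, COP coats, ATF4 targets, p53 targets, lysosomal proteins, glycolysis and mitochondrial carriers, all between 0.05 and 0.28 under TMM scaling, turned negative (−0.04 to −0.26) but stayed above that of all genes. More members of each of these lists were then called lower than higher, except for the other TOP mRNAs (7 and 7). The IP and total libraries did not overlap at 9294 genes (73.5%).

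The IP to total ratio had nearly the same order of genes with both siRNAs. In NT cells 8810 genes (69.7%) passed, 4273 higher (33.8%) and 4537 lower (35.9%), with 264 higher (2.09%) and 925 lower (7.32%) by 2-fold or more. These contrasts share no library. Across the 11569 genes without a near-identical copy the log2 ratios with Pdx1 and NT siRNA correlated at Pearson's r = 0.917 and a Spearman coefficient of 0.946, a description over genes that share libraries. Of the 7468 such genes that passed with both siRNAs, 7458 had the same direction. The spread over genes was wider with Pdx1 siRNA (SD 0.775 against 0.629), as the plot of both ratios shows. Across the 449 genes with a copy the correlation was lower (0.561 and 0.757).

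**Figure D1:**
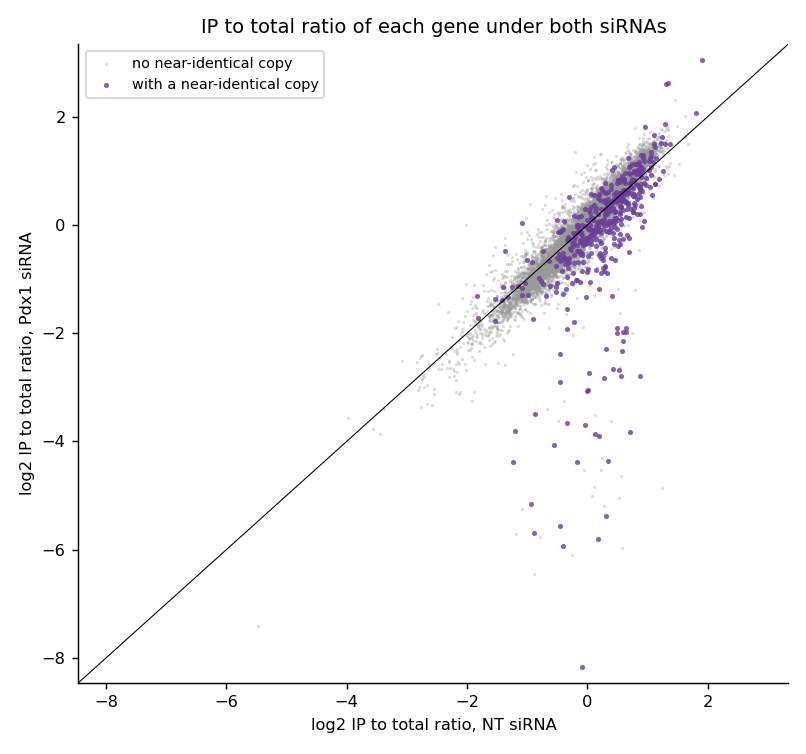
Log2 IP to total ratio with Pdx1 siRNA (vertical axis) against NT siRNA (horizontal axis), 1 point per gene, grey for 11569 genes without and violet for 449 genes with a near-identical copy, with the line of equal values. Most genes follow the line, and a column of points far below it holds many genes with a copy.

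The mRNAs most enriched on ribosomes named here mostly encoded small proteins of mitochondria and membranes. The rule for names took genes that averaged 5 CPM or more, with no overlap of the libraries and less than 10% of the transcript matched elsewhere, so the separation of the groups is fixed by the choice. Tmem160 (chromosome 7, 16452779 to 16455496), encoding a small transmembrane protein, was at 130.4, 97.9 and 142 CPM in the IP libraries and 30.6, 28.3 and 32.7 CPM in the total libraries. That is a 4.04-fold higher level (log2 2.01, SE 0.13, edgeR adjusted p = 4.17e-09). Ndufa1 (chromosome X, 37187588 to 37191238), a short membrane subunit of respiratory complex I, held 717, 614 and 647 CPM in IP and 221, 165 and 174 CPM in total RNA (3.53-fold, log2 1.82, SE 0.13, edgeR adjusted p = 1.56e-08). Uqcrh, the hinge subunit of complex III, held 362, 321 and 306 against 118, 82.7 and 84.8 CPM (log2 1.79, SE 0.15). In all 3 genes every IP library was more than 2-fold above every total library.

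Rabac1, encoding the Golgi-located prenylated Rab acceptor PRA1, was at 1208, 1011 and 1397 against 320.1, 338 and 406 CPM (log2 1.76), and Tmem147, a subunit of ER-bound translocon complexes, at 563, 523 and 653 against 185, 149.5 and 182 CPM (log2 1.75). Arhgdig, an inhibitor of small GTPases, was 3.57-fold higher (log2 1.84, SE 0.14) and the secreted C1q-family protein gene C1qtnf4 3.45-fold (log2 1.79, SE 0.09). Lcn2, encoding the siderophore-binding protein lipocalin 2, held 70.5, 65.9 and 118 CPM in IP RNA and 21.4, 20.9 and 33.8 CPM in total RNA (log2 1.74, SE 0.20). Replicate 3 was the highest in both groups. The largest ratio in this set, that of the endocytic sorting nexin gene Snx9 at 8.68, 9.41 and 6.97 against 1.81, 1.34 and 1.96 CPM (log2 2.31, SE 0.38), was 0.58 with the mapping batch as a term and no longer passed (edgeR adjusted p = 0.0989). In NT cells these 9 genes were also higher in IP RNA, at log2 ratios of 0.80 to 1.63.

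At the other end, the mRNAs most depleted from IP RNA were mostly long and encoded large scaffold, membrane or regulatory proteins. Muc4 (chromosome 16, 32735886 to 32782391), a membrane mucin with 10410 coding bases, had 2.27, 2.69 and 2.52 CPM in IP RNA and 18.6, 32.0 and 29.3 CPM in total RNA, a 10.6-fold lower level (log2 −3.41, SE 0.21, edgeR adjusted p = 3.26e-09). Trip11 (chromosome 12, 101834045 to 101913171), which encodes the Golgi microtubule-associated protein GMAP-210, had 3.31, 3.38 and 3.08 CPM against 19.8, 30.4 and 30.8 CPM (8.31-fold lower, log2 −3.06, SE 0.16). Akap12, a scaffold for protein kinase A, had 5.33, 5.92 and 7.32 CPM in IP RNA and 23.1, 69.6 and 69.0 CPM in total RNA (log2 −3.11, SE 0.34). Its total level in replicate 1 was the odd one, though still above every IP library.

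Cpeb4 and Mdm4 encode regulators that are themselves tied to mRNA and p53. Cpeb4, a cytoplasmic polyadenylation element binding protein, was at 1.51, 1.85 and 1.66 against 11.6, 15.03 and 14.5 CPM (log2 −3.02, SE 0.15). Mdm4, the p53 inhibitor related to Mdm2, was at 2.60, 4.10 and 4.18 against 31.0, 27.4 and 28.2 CPM (log2 −2.96, SE 0.12), although its coding sequence of 1467 bases is not long. Arfgef3, a granule-located protein of the Arf exchange factor family, was 7.30-fold lower (log2 −2.87, SE 0.16) and Lmbrd2, a membrane protein of the LIMR family, 8.71-fold lower (log2 −3.12, SE 0.22). For 2 further genes the reads may belong to a neighbour: Zfhx2os (log2 −3.87) shares 96.9% of its exons with Zfhx2 and another gene, and Zbed6 (log2 −3.77) lies wholly within exons of Zc3h11a. NT cells gave −2.13 to −3.56 for these 9 genes.

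Lars2 (chromosome 9, 123366927 to 123462675), a mitochondrial leucyl-tRNA synthetase gene, had the lowest ratio among the genes taken by that rule. It held 44.9, 46.4 and 47.1 CPM in the Pdx1 IP libraries and 1544, 1186 and 1300.3 CPM in the total libraries (log2 −4.86, SE 1.09, edgeR adjusted p = 0.000842). Its NT IP libraries were at 366, 10552 and 156 CPM, with replicate 2 far above the others. When the mapping batch was a term, its Pdx1 ratio was 0.27 (edgeR adjusted p = 0.858), so neither its size nor its sign was stable.

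**Figure D2:**
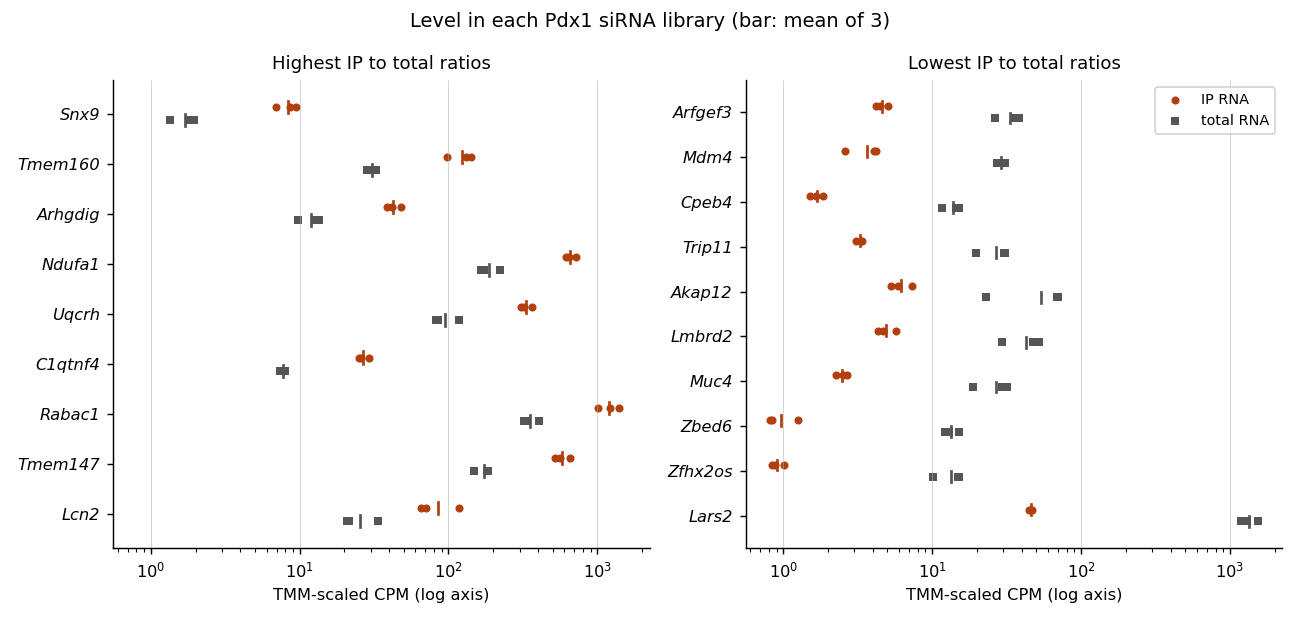
CPM in each of the 3 IP libraries (circles) and 3 total libraries (squares) with Pdx1 siRNA for 9 of the 10 genes with the highest (left) and the 10 with the lowest (right) IP to total ratio, on a log axis, with a bar at each mean. The groups are separate for each gene, as the rule for names required, and the Akap12 squares show the low total replicate 1.

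Coding length was the gene property that went with the ratio most closely. Coding length was known for 12015 of 12643 genes (95%), from GENCODE M21 transcripts. In quintiles of these genes by coding length, from 75 to 759 bases up to 2517 to 26397 bases, the median log2 ratio was 0.67, 0.30, −0.02, −0.30 and −0.73. In the shortest quintile 76.1% of genes were higher in IP RNA and 6.08% lower, while in the longest 4.91% were higher and 81.9% lower. Across genes the Spearman correlation was −0.66 with Pdx1 siRNA and −0.67 with NT siRNA, whose medians ran from 0.54 to −0.61. These correlations describe genes read in the same libraries and are no test.

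The gradient was present in each IP library. Each library was set against the mean of the total libraries of both siRNAs together. The median of the shortest quintile exceeded that of the longest by 1.37, 1.33 and 1.27 (log2) in the Pdx1 IP libraries. The NT IP libraries gave 1.23, 1.08 and 1.18. All these values share 1 reference, so they are not each siRNA's own IP to total step. The IP ranges of the siRNAs did not overlap. An exact permutation test of the difference in means gave a 2-sided p of 0.1, which it cannot go below with 3 libraries against 3. The total libraries gave 0.20, −0.17 and −0.17 with Pdx1 siRNA and 0.16, −0.12 and 0.08 with NT siRNA, so Pdx1 total replicate 1 had relatively more short and fewer long mRNAs than its 2 companions. Read position along transcripts cannot be seen in a table of counts, and whether library preparation or RNA integrity had a part in the gradient was not tested.

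**Figure D3:**
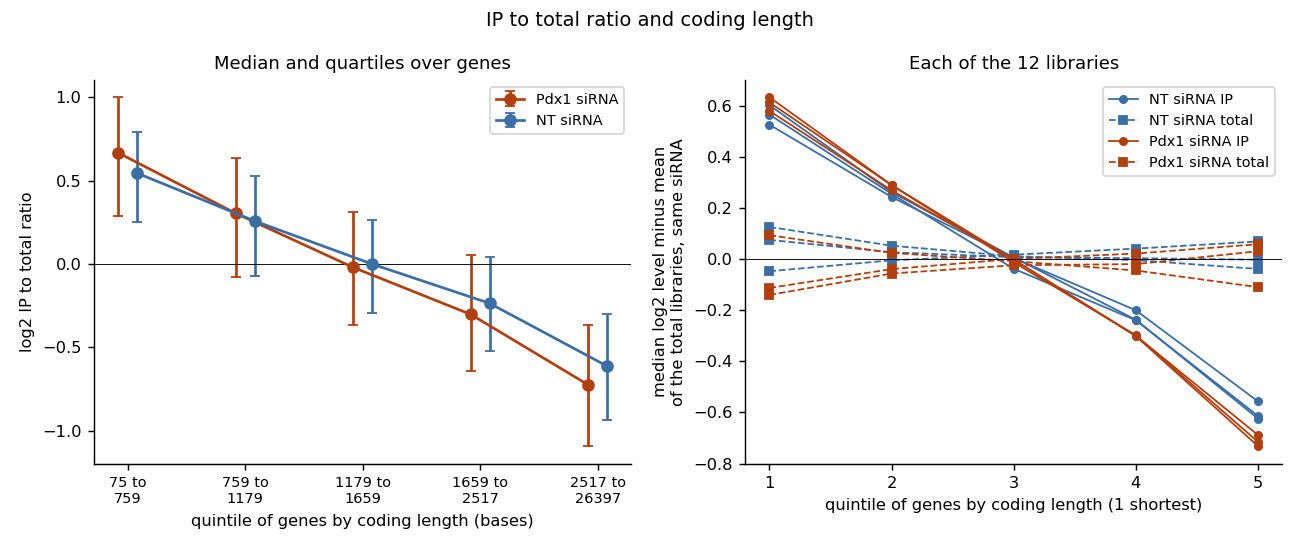
Left, median log2 IP to total ratio in quintiles of genes by coding length, with bars from the lower to the upper quartile, for Pdx1 siRNA and NT siRNA. Right, each library's median log2 level in the same quintiles relative to the mean of the total libraries of both siRNAs together, although the axis label names the same siRNA. All 6 IP libraries run from 0.53 or more in the shortest quintile to −0.56 or less in the longest. The total libraries stay between −0.14 and 0.13.

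Other properties added less. For transcript length the medians ran from 0.70 to −0.66. Genes were also read against others of like coding length, by taking from each ratio the median of genes without a copy in the same bin of coding length, of 20 in all, a step added after the data were seen. On that scale the quintile with the shortest 3′ untranslated regions had a median of 0.21 and the quintile with the longest −0.28 (0.17 and −0.22 with NT siRNA). GC content went the other way, from −0.32 in the quintile with the lowest to 0.33 in the quintile with the highest GC content (−0.20 and 0.19 with NT siRNA). The length of the 5′ untranslated region made little difference, with medians of 0.01 and −0.03 in the outer quintiles, and the level in total RNA likewise, with uncentred medians of −0.05 in the lowest and 0.04 in the highest quintile. GC content can also affect sequencing libraries, and its part in the ratio was not tested.

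A hydrophobic stretch near the start of a protein marks signal peptides and signal anchors, which bring ribosomes to the ER. In every quintile of coding length, genes whose first 40 residues held a 15-residue window with a mean hydrophobicity of at least 2 had a slightly higher median than the rest. In the shortest quintile it was 0.86 for 293 such genes against 0.65 for 2110 others, and in the longest −0.67 for 215 against −0.73 for 2188. The step between such genes and the others was 0.03 to 0.21, small beside the gradient with length.

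Among genes grouped by function, those of the mitochondrial energy and translation machinery had the highest medians over all measured members. That order was not fixed: with the batch term cytosolic ribosomal proteins (1.13) lay above the respiratory chain (1.08) and mitochondrial ribosomal proteins (0.85), and among members without a copy cytosolic ribosomal proteins (0.96) and other TOP mRNAs (0.93) lay above mitochondrial ribosomal proteins (0.88). The respiratory chain and ATP synthase turn reducing equivalents into ATP, and in their list 65 of 76 measured members were higher in IP RNA, 3 were lower and 8 did not pass, beside 36.3% higher and 38.7% lower among all genes. The median log2 ratio was 1.13, beside −0.02 for all genes. Uqcrq, a subunit of complex III, held 251, 224 and 226 CPM in IP and 79.9, 71.3 and 68.2 CPM in total RNA (log2 1.68, SE 0.10), and Ndufb7 of complex I held 116, 95.7 and 100.3 against 38.3, 35.9 and 33.2 CPM (log2 1.54, SE 0.11). Of the mitochondrial ribosomal proteins, 67 of 76 measured members were higher in IP RNA, 0 were lower and 9 did not pass (median 0.84). Mrpl34 was at 49.2, 46.2 and 44.9 against 17.8, 14.1 and 14.6 CPM (3.02-fold), Mrpl54 at log2 1.64 and Mrpl2 at log2 1.26. Both lists hold short mRNAs, with median coding lengths of 490 and 603 bases. Relative to genes of like coding length their medians were 0.47 over 54 members and 0.33 over 59. In the carriers of the inner membrane (Slc25 family) 11 of 29 measured members were higher in IP RNA, 7 were lower and 11 did not pass. Their median was 0.08 (0.043 without Pdx1 total replicate 2), and −0.06 relative to genes of like coding length. They ran from Slc25a39, a glutathione carrier, at 1.29 to Slc25a36, a pyrimidine nucleotide carrier, at −1.36.

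Cytosolic ribosomal protein mRNAs carry a 5′ terminal oligopyrimidine (TOP) tract, through which mTOR signalling sets their translation, and they have many processed pseudogenes. In this list 45 of 82 measured members were higher in IP RNA, 12 were lower and 25 did not pass, with a median of 0.48 (0.75 with NT siRNA). However, 58 of the 82 genes have a near-identical copy, and when the mapping batch was a term the median was 1.13. The 5 members without a copy had a median of 0.96. Rpsa, the laminin receptor protein of the small subunit, held 346, 282 and 299.7 CPM in IP and 122, 91.1 and 92.8 CPM in total RNA (3.03-fold, with a log2 SE of 0.12; log2 1.56 with the batch term). Rpl8 was at log2 1.36 (1.18 with the batch term). Rpl10a, whose protein carries the tag in many TRAP lines, had 11.2, 9.74 and 10.4 CPM in IP and 8.38, 7.96 and 7.39 CPM in total RNA, but copies elsewhere match most of its transcript and the call was lost with the batch term (edgeR adjusted p = 0.237) and with library totals alone (0.538).

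Of the other TOP mRNAs, 9 of 21 measured members were higher in IP RNA, 3 were lower and 9 did not pass (median 0.28). The 7 members without a copy had a median of 0.93, and all 7 lay above genes of like coding length, by a median of 0.87. Rack1, a scaffold on the small ribosomal subunit, was at 1501, 1353 and 1298 against 551, 437 and 444 CPM (log2 1.53, SE 0.11). The initiation factor 3 subunit genes Eif3k and Eif3f, both TOP mRNAs, were at log2 1.43 and 1.19. The elongation factor gene Eef2, with part of its transcript matched elsewhere, was at 2943, 2748 and 2750.1 against 1854, 1888 and 1836 CPM (log2 0.60, SE 0.08; 0.25 with NT siRNA). Pabpc1, the poly(A)-binding protein gene, was at −0.30 and reversed to 0.21 with the batch term, and without Pdx1 IP replicate 1 or 3 it no longer passed (edgeR adjusted p = 0.0754 and 0.0551).

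Initiation factors went in both directions. In their list 21 of 36 measured members were higher in IP RNA, 5 were lower and 10 did not pass (median 0.28). Eif3a, the large scaffold subunit of initiation factor 3 with 4032 coding bases, was at 92.4, 84.1 and 87.0 CPM in IP and 218, 254 and 238 CPM in total RNA (log2 −1.43, SE 0.08). The cap-binding inhibitors, 4E-BPs, differed from each other: Eif4ebp1 was at 24.2, 25.2 and 26.1 against 10.2, 10.2 and 10.2 CPM (log2 1.30), whereas Eif4ebp2 was at 4.91, 6.42 and 6.65 against 15.2, 15.3 and 14.4 CPM (log2 −1.31). Their coding sequences are of nearly the same length, 351 and 360 bases. Their 3′ untranslated regions hold 1566 and 980 bases, and the GC content of the transcripts is 48.2% and 56.7%. Both properties run opposite to their trends over all genes given above, and what sets these 2 genes apart was not tested. Among aminoacyl-tRNA synthetases, the enzymes that charge tRNAs, 5 of 37 measured members were higher in IP RNA, 17 were lower and 15 did not pass (median −0.18, and 0.17 relative to genes of like coding length). The cytosolic isoleucine enzyme gene Iars was at −1.08, and the mitochondrial phenylalanine enzyme gene Fars2 at 0.98.

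Hormone mRNAs of the secretory granule were higher in IP RNA, and the granin mRNAs Chgb and Scg2 were lower. In the list of granule hormones and granins 14 of 20 measured members were higher in IP RNA, 4 were lower and 2 did not pass (median 0.72). Ins2 (chromosome 7, 142678656 to 142679726) was the most abundant gene, with 142079, 114783 and 145087 CPM in IP and 56144, 54755 and 56878 CPM in total RNA, and was 2.40-fold higher (log2 1.26, SE 0.14, edgeR adjusted p = 6.79e-07). Ins1 was at 26706, 22746 and 29279 against 12931, 12368 and 13489 CPM (2.03-fold, log2 1.02, SE 0.11). Together the insulin genes took 11.9% to 13.7% of IP counts and 6.69% to 7.36% of total counts. Against genes of like coding length Ins2 was at 0.33 and Ins1 at 0.09, but the median of the whole list was 0.04, with 11 of 20 members above 0.

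Iapp, encoding the co-secreted amyloid peptide, was at 48013, 45740.4 and 52273 against 28691, 24328 and 26645 CPM (log2 0.87, SE 0.12; −0.05 relative to genes of like coding length). Peptide genes more typical of other endocrine cells were measured too and followed the same direction: Gcg (glucagon) at log2 0.86, Cck (cholecystokinin) at 1.10, Cartpt at 1.27 and the low Ppy (pancreatic polypeptide, 2.92, 1.96 and 2.70 CPM in total RNA) at 1.49. Ttr, the abundant thyroid hormone carrier of islet cells, was at 68088, 55577 and 70897 against 29030.5, 28110.1 and 31305 CPM (log2 1.14, SE 0.13). The granins are larger acidic proteins that help granules form. Chgb was lower in IP RNA, with 17893, 17193 and 20421 against 24605, 30936 and 34836 CPM (log2 −0.70, SE 0.13), and Scg2 was at −0.52 (edgeR adjusted p = 0.157 with the batch term). For Chga, at 17282, 15365 and 20367 against 19324, 24835 and 26844 CPM, the libraries overlapped and the call (log2 −0.42, edgeR adjusted p = 0.0106) was lost without Pdx1 IP replicate 2 (0.0506), in a fit of only these 6 libraries (0.0539) and with the batch term (0.147).

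Prohormone-processing enzymes and granule membrane proteins were split in a way that depended on scaling. In their list 5 of 21 measured members were higher in IP RNA, 5 were lower and 11 did not pass (median −0.13; −0.08 without Pdx1 IP replicate 3). With upper-quartile factors 5 were higher and 10 lower, and with library totals alone 2 were higher and 15 lower. In NT cells 4 were higher and 8 lower, and relative to genes of like coding length the median was −0.23. Carboxypeptidase E (Cpe) was at 19189, 18955 and 22849 against 13764, 14868 and 16867 CPM (log2 0.42; 0.10 with library totals alone), the convertase gene Pcsk1 at −0.89, and Pcsk2 at −0.26 without passing (edgeR adjusted p = 0.0606, and 0.00925 and 0.021 without Pdx1 total replicate 1 and without Pdx1 IP replicate 3). Rab3a, a small GTPase of exocytosis, was at 1.03, and the receptor-like carboxypeptidase gene Cpd at −1.11. The glucose transporter gene Slc2a2 (GLUT2) stood far lower than these, with 7.59, 7.75 and 7.43 CPM in IP RNA and 27.0, 32.0 and 31.2 CPM in total RNA (3.96-fold lower, log2 −1.99, SE 0.10, edgeR adjusted p = 1.03e-09). With NT siRNA the Slc2a2 ratio was −1.33, and the difference between siRNAs missed the threshold (log2 −0.66, SE 0.14, edgeR adjusted p = 0.0564).

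Genes of ER translocation and folding were more often higher in IP RNA under TMM scaling, COP coat genes went in both directions, and Golgi tethers were more often lower. For the machinery that inserts proteins into the ER, 20 of 32 measured members were higher in IP RNA, 7 were lower and 5 did not pass (median 0.52). Krtcap2, a subunit of the oligosaccharyltransferase, was at 812, 749 and 858 against 293, 240.0 and 270.4 CPM (log2 1.59), Sec11c of the signal peptidase was 3.02-fold higher and Ssr4 of the translocon-associated complex was at log2 1.41. Among ER chaperones and folding enzymes 16 of 33 measured members were higher in IP RNA, 7 were lower and 10 did not pass (median 0.28; 0.17 without Pdx1 IP replicate 3 and 0.18 without Pdx1 total replicate 1). With library totals alone 12 were higher and 15 lower. The prolyl isomerase gene Fkbp2 was at 1618, 1385 and 1693 against 569, 508 and 584 CPM (2.83-fold) and the ER stress factor Manf at log2 1.29, but Hspa5, which encodes the main ER chaperone BiP, was lower with 2604, 2441 and 2933 against 3638, 3823 and 4414 CPM (log2 −0.57, SE 0.10; edgeR adjusted p = 0.0731 with the batch term).

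COP coats shape the vesicles between ER and Golgi, and here 16 of 31 measured members were higher in IP RNA, 14 were lower and 1 did not pass (median 0.26). With library totals alone 11 were higher and 15 lower, and relative to genes of like coding length the median was −0.12, with 11 of 29 members above 0. Its short member Copz2 was at 1.45 and its long members Sec24a, Sec31a and Copa at −1.44, −1.04 and −0.89. Golgi coiled-coil tethers, long proteins that catch vesicles, were low: 2 of 16 measured members were higher in IP RNA, 11 were lower and 3 did not pass (median −0.66, and −0.46 with the batch term). Golgb1 (giantin) was at 41.4, 38.8 and 50.5 CPM in IP and 211, 294 and 319 CPM in total RNA (6.31-fold lower, log2 −2.66, SE 0.14), Gcc2 at log2 −2.20 and Golga4 at −1.63. Their median relative to genes of like coding length was −0.04. In the lysosomal list 11 of 31 measured members were higher in IP RNA, 9 were lower and 11 did not pass, with the protease gene Ctsz at 1.18 and the cholesterol transporter gene Npc1 at −1.27.

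Proteins of the cell surface were mostly on the lower side. No plasma membrane solute carrier was called higher and 18 of 32 were lower (median −0.44, −0.24 relative to length), among them the arginine transporter gene Slc7a2 with 95.2, 105 and 116 against 260.4, 302 and 333 CPM (log2 −1.50) and the bicarbonate transporter gene Slc4a7 at −1.66. For ion channels 7 of 28 measured members were higher in IP RNA, 17 were lower and 4 did not pass (median −0.63). The sodium channel gene Scn3a was at −1.64, the ER calcium channel gene Itpr2 at −1.59 and the short store-operated channel gene Orai1 at 0.96. Relative to genes of like coding length the ion channel median was 0.20. Extracellular matrix, integrin and cadherin genes were lower in 14 of 19 and higher in 4 (median −0.76), with the integrin gene Itga6 at −1.59, E-cadherin (Cdh1) at −1.15 and the laminin chain gene Lamc1 at −1.44. Relative to genes of like coding length the median of these matrix and adhesion genes was −0.11.

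**Figure D4:**
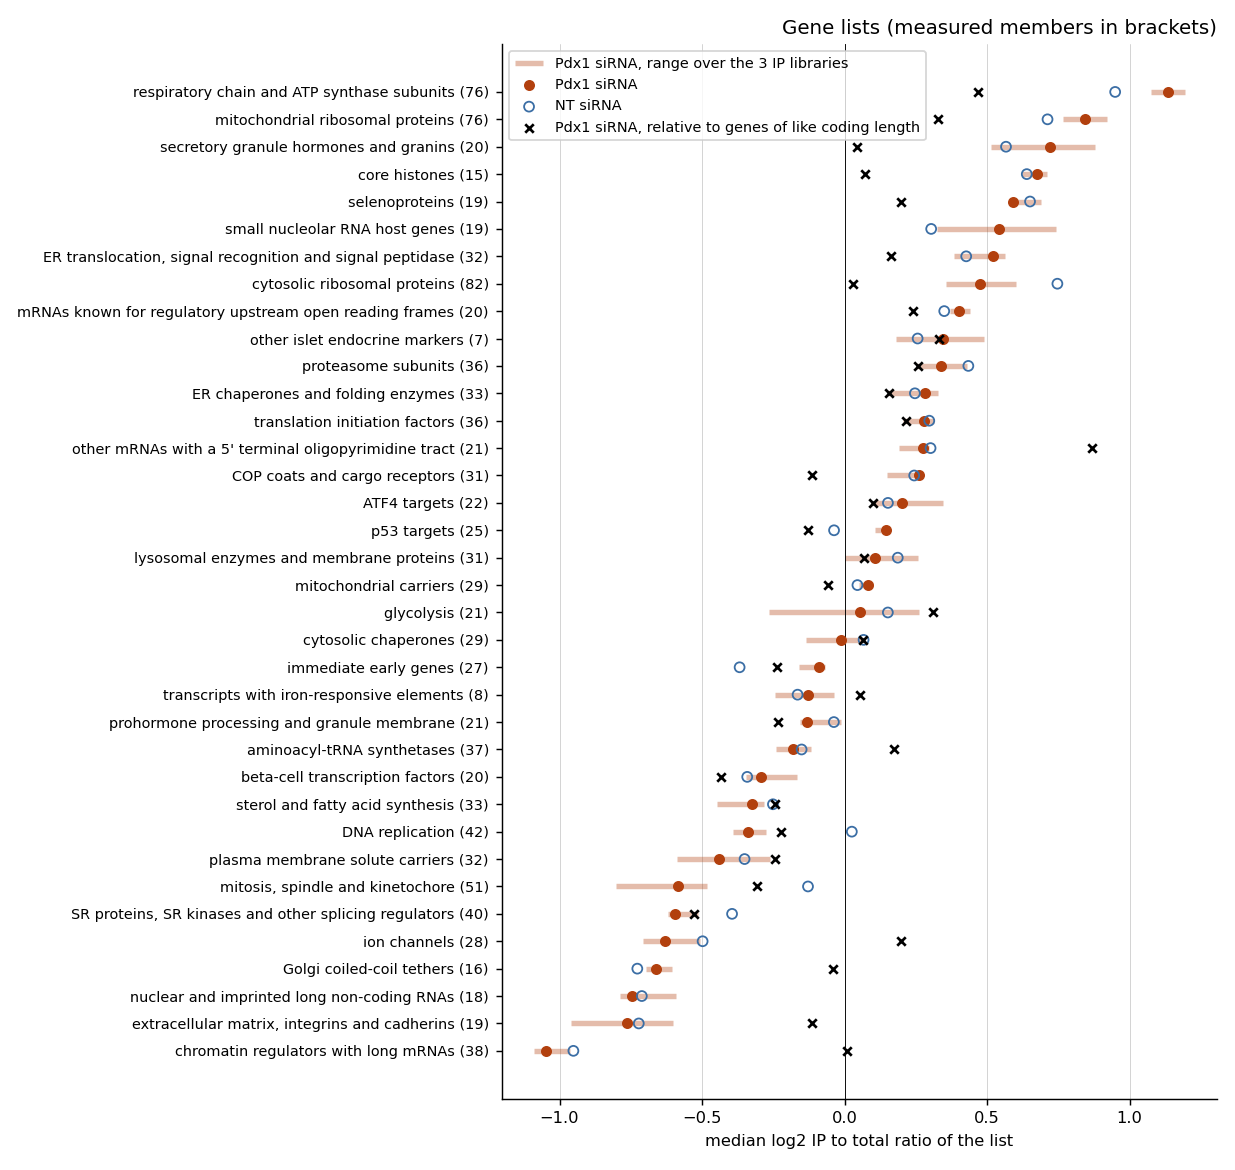
Median log2 IP to total ratio of each list with 5 or more measured members, with Pdx1 siRNA (filled points, with a band for the range over the 3 IP libraries), with NT siRNA (open points) and, as crosses, with Pdx1 siRNA relative to genes of like coding length for members without a copy. Crosses lie nearer to 0 than the points for the respiratory chain and chromatin lists, a little nearer for the splicing list (−0.53 against −0.60) and farther from 0 for the beta-cell transcription factor list (−0.43 against −0.29).

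Transcription factor mRNAs of the beta cell were mostly lower in IP RNA, also relative to genes of like length. In their list 3 of 20 measured members were higher in IP RNA, 11 were lower and 6 did not pass (median −0.29), and relative to genes of like coding length 15 of 19 members were below 0 (median −0.43; −0.55 with NT siRNA). Mlxipl (ChREBP, a glucose-responsive factor) was at 53.9, 51.5 and 51.4 against 122, 133 and 134 CPM (log2 −1.31, SE 0.07). Neurod1, a basic helix-loop-helix factor of endocrine cells, was at 73.1, 79.5 and 74.3 against 145, 130.2 and 134 CPM (log2 −0.85, SE 0.09), and Rfx3 and Glis3 were at −1.37 and −1.84. Myt1, a zinc finger factor of endocrine differentiation, went the other way at 133, 133 and 86.7 against 61.4, 63.2 and 59.9 CPM (log2 0.93, SE 0.13). Mafa, an activator of insulin transcription, was at 34.0, 27.5 and 33.5 against 37.8, 47.8 and 36.0 CPM (log2 −0.36, edgeR adjusted p = 0.0273). Its call was lost without Pdx1 IP replicate 2 (0.129), without Pdx1 total replicate 2 (0.171) and with the batch term (0.111). Of the markers of other islet cells, 5 of 7 were higher and 2 lower (median 0.34).

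Several mRNAs have upstream reading frames that hold back their main reading frame until the integrated stress response is active. In that list 11 of 20 measured members were higher in IP RNA, 3 were lower and 6 did not pass (median 0.40). With NT siRNA 12 were higher and 3 lower (median 0.35). Atf4, the stress-response factor that is the best-known case, was at 194, 186 and 189 against 124, 102 and 97.8 CPM (log2 0.82, SE 0.10). Its NT ratio was 0.59 (difference adjusted p = 0.436 by edgeR). Atf5 was at 89.7, 88.1 and 94.9 against 40.4, 45.4 and 45.0 CPM (log2 1.06, SE 0.07; 0.55 with NT siRNA, difference adjusted p = 0.0564 by edgeR). The Atf5 transcript counted is one that RefSeq lists as non-coding. Ddit3 (CHOP) was at 1.00, with 0.71 under NT siRNA (difference adjusted p = 0.2575 by edgeR), and Cebpb at 1.22. These 2 genes share 20.9% and 20.7% of their exons with other annotated genes. Eprs, a long tRNA synthetase mRNA, was at −1.04. An mRNA held by a ribosome on an upstream frame is also recovered, so the ratio does not show that the main protein was made. Of genes activated by ATF4, 9 of 22 measured members were higher in IP RNA, 4 were lower and 9 did not pass. Their median was 0.20 (0.12 without Pdx1 IP replicate 3, and 0.15 with NT siRNA). The stress protein gene Nupr1 was at 1.55, the folate enzyme gene Mthfd2 at 0.80 and Sesn2, an inhibitor of mTOR, at −0.63.

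Long non-coding RNAs that stay in the nucleus were mostly depleted from IP RNA. In the list of nuclear and imprinted non-coding RNAs 3 of 18 measured members were higher in IP RNA, 10 were lower and 5 did not pass (median −0.74). Malat1 (chromosome 19, 5795690 to 5802672), a nuclear speckle RNA, was at 115, 119 and 96.5 CPM in IP and 591, 464 and 519 CPM in total RNA (4.76-fold lower, log2 −2.25, SE 0.14, edgeR adjusted p = 5.12e-09). Neat1, the scaffold of paraspeckles, was at 395, 406 and 418 against 1498, 1103 and 1060.3 CPM (log2 −1.59, SE 0.12), and the imprinted Meg3 at 18.7, 15.1 and 16.9 against 95.5, 76.3 and 99.0 CPM (log2 −2.42, SE 0.11). For each of these 3 RNAs every IP library lay below every total library. Firre and Ftx, RNAs linked to the X chromosome, were at −2.58 and −1.38. Host genes of small nucleolar RNAs, spliced transcripts that reach the cytoplasm and are often TOP RNAs, were in contrast higher in 11 of 19 and lower in 2 (median 0.54). Snhg12 and Snhg6 were at 1.01 and 1.06, and Snhg17 at −0.80. Over all 585 genes with non-coding accessions 198 (33.8%) were higher and 212 (36.2%) lower, close to the 36.4% and 38.9% of coding genes.

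mRNAs for nuclear regulators of RNA and of chromatin were both lower in IP RNA, but compared differently with genes of like length. Of splicing regulators 32 of 40 were lower and 2 higher (median −0.60), and relative to genes of like coding length 26 of 30 were below 0 (median −0.53). Pnisr, an SR-rich protein, was at 16.7, 15.3 and 13.4 against 68.8, 60.2 and 70.2 CPM (log2 −2.14, SE 0.09), the RNA helicase gene Ddx17 at −1.31 and the RNA-binding protein gene Tia1 at −1.46. Chromatin regulators with long mRNAs were lower in 37 of 38 and higher in 0 (median −1.05), but at 0.01 relative to genes of like coding length. Among them the acetyltransferase gene Crebbp was at 3.15, 3.29 and 3.48 against 11.9, 16.7 and 16.7 CPM (log2 −2.19), Tet2 at −1.99 and the histone methyltransferase gene Kmt2d at −1.61. Histone genes, whose mRNAs are short, were higher in 12 of 15 and lower in 0 (median 0.67), with linker histone H1f2 at 1.05. Relative to genes of like coding length the histone median was 0.07 over 8 members.

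Cell division genes were mostly lower in the IP RNA of Pdx1-depleted cells, and nearly all had a lower ratio than in NT cells. For mitosis, spindle and kinetochore 5 of 51 measured members were higher in IP RNA, 37 were lower and 9 did not pass (median −0.58, against −0.13 with NT siRNA). For DNA replication 8 of 42 measured members were higher in IP RNA, 25 were lower and 9 did not pass (median −0.34, against 0.03). The ratio was lower with Pdx1 than with NT siRNA at 49 of 51 mitosis genes and 41 of 42 replication genes, beside 6071 of 12643 genes (48%), with median differences of −0.47 and −0.33 beside 0.01. Without Pdx1 total replicate 1 the medians were −0.39 and −0.30, and without NT IP replicate 3 −0.45 and −0.34. Genes of a list share libraries and move together, so these counts are a description. These values are ratios and do not give the levels of the RNAs. For a level in bulk RNA, a smaller number of dividing cells and less RNA per cell cannot be told apart. Whether either bears on the ratio was not tested.

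Knl1, the outer kinetochore scaffold, was at 0.629, 1.05 and 0.522 CPM in IP and 4.45, 4.62 and 4.19 CPM in total RNA (log2 −2.56, SE 0.18; −1.49 with NT siRNA). Cenpf and Kif20b, a kinetochore protein and a mitotic kinesin, were at −1.98 and −1.93. The polymerase epsilon gene Pole was at 3.44, 3.85 and 3.51 against 10.6, 12.7 and 10.6 CPM (log2 −1.65; −1.12 with NT siRNA), and Mcm3 of the replicative helicase at −0.90 (−0.41 with NT siRNA). None of these 5 differed between siRNAs past the threshold (edgeR adjusted p of 0.0564 to 0.228). In the list of p53 targets 11 of 25 measured members were higher in IP RNA, 9 were lower and 5 did not pass (median 0.14, against −0.04 with NT siRNA; 0.093 without Pdx1 IP replicate 3). Relative to genes of like coding length the p53 median was −0.13, with 10 of 23 members above 0. Cdkn1a (p21) was at 234, 219 and 212 against 129.7, 129 and 118 CPM (log2 0.82, SE 0.08), Bax at 1.37 and Phlda3, an inhibitor of Akt, at 1.30. Of immediate early genes 8 of 27 measured members were higher in IP RNA, 11 were lower and 8 did not pass (median −0.09; −0.15 without Pdx1 IP replicate 1 and −0.035 without Pdx1 total replicate 2), with Npas4 at −1.68 and Ier3 at 1.10.

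Housekeeping groups were mixed. Proteasome subunits were higher in 22 of 36 and lower in 5 (median 0.34), from the core subunit gene Psmb4 at 1.07 to the long base subunit gene Psmd1 at −0.83. For cytosolic chaperones 12 of 29 were higher and 11 lower (5 and 16 with library totals alone), with Hspb8 at 1.03. Hsp90aa1, which has a near-identical copy, was at −1.07 in the fit without the batch term. Glycolysis gave 7 higher and 6 lower of 21, and 2 higher and 10 lower with library totals alone. Its median of 0.05 had no stable sign. It was −0.0041, −0.044 and −0.0754 without Pdx1 IP replicate 2, IP replicate 3 and total replicate 1, and 0.21, 0.26 and 0.11 without IP replicate 1, total replicate 2 and total replicate 3. In sterol and fatty acid synthesis 8 of 33 were higher and 19 lower (median −0.33), with the fatty acid synthase gene Fasn at −1.27.

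Selenoprotein mRNAs, which need a recoded stop codon, were higher in 14 of 19 and lower in 2 (median 0.59). Relative to genes of like coding length their median was 0.20 over 17 members. Gpx1, the cytosolic glutathione peroxidase, was at 147, 133 and 139.9 against 47.7, 51.2 and 47.0 CPM (log2 1.52, SE 0.08) and the ER selenoprotein gene Selenom at 1.62. Iron-responsive elements sit in the 5′ or the 3′ untranslated region and block translation or protect the mRNA. Of 8 measured transcripts 3 were higher and 4 lower. Ferritin heavy chain (Fth1), with its element in the 5′ region, was at 406, 421 and 389.7 against 252, 189 and 189.9 CPM (log2 0.95), and the transferrin receptor gene Tfrc, with elements in the 3′ region, at 142, 161 and 186 against 320.0, 312 and 374 CPM (log2 −1.04).

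Genes with a near-identical copy made up many of the extreme low values. Of 449 such genes 174 (38.8%) were higher and 143 (31.8%) lower. Of 66 genes at least 8-fold lower in IP RNA, 20 had a copy and 37 had none, and at 43 of the 66 the NT ratio was above −1. The retrogene Rpl32l was at 1.38, 1.02 and 0.639 CPM in IP and 22.3, 19.4 and 19.3 CPM in total RNA (log2 −4.37), with 45.7, 37.5 and 0.813 CPM in the NT IP libraries. With the batch term its ratio was 1.30. Rps7 (log2 −2.82), Rpl9 (−2.80), Rps15a-ps4 (−5.38) and the ubiquitin pseudogene Ubb-ps (−3.67) likewise turned to 0.82, 0.76, 0.37 and 0.01. At the upper end the glycolytic gene Pgk1 went from 3.05 to 0.67 and Fau, a ribosomal protein fused to a ubiquitin-like one, from 1.81 to 1.02. Rpl41 (2.07 and 1.72) and the cytochrome oxidase subunit gene Cox7c (1.66 and 1.24) moved less. The term rests on NT IP replicate 3 against replicates 1 and 2 alone.

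Few single genes differed between the siRNAs in their IP to total ratio. In the test of the difference 29 of 12643 genes (0.229%) passed, 22 with a higher (0.174%) and 7 with a lower ratio (0.0554%) in Pdx1-depleted cells, and 2155 (17.0%) had an unadjusted p under 0.05. The split depended on scaling: 22 were higher and 20 lower with RLE size factors, 24 and 28 with upper-quartile factors and 24 and 30 with TMM factors computed without the insulin genes. The count was unstable too: it was 4 to 571 when 1 library was left out, reaching 571 if NT IP replicate 3 was dropped and 383 if Pdx1 total replicate 1 was, and DESeq2 gave 327. With the replicate number as a block 373 genes passed. All 7 genes with a lower ratio are named here. Blm, a helicase of DNA repair, had 2.06, 2.16 and 1.95 CPM in IP and 5.12, 5.20 and 5.35 CPM in total RNA with Pdx1 siRNA, and 11.7, 11.2 and 10.8 against 13.1, 12.5 and 12.5 CPM with NT siRNA. Its ratio differed by −1.17 (log2, SE 0.12, edgeR adjusted p = 0.000544), and only with Pdx1 siRNA did IP and total libraries lie far apart. Smarcal1, which remodels stalled replication forks, changed side, from 0.39 with NT to −0.45 with Pdx1 siRNA (difference −0.84, SE 0.10, edgeR adjusted p = 0.00246).

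The others with a lower ratio were also mostly genes of dividing cells. The spindle checkpoint kinase gene Bub1 differed by −0.85, the proliferation marker gene Mki67 by −0.75 and the mitotic kinase gene Melk by −0.71. The cell cycle factor gene E2f8 and the centriole protein gene Cep162 each differed by −0.57. In all 7 the Pdx1 IP libraries lay below the Pdx1 total libraries without overlap, beside 73.5% of all genes without overlap in either direction. The 7 genes were picked by a test on these same libraries.

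Of the 22 genes with a higher ratio, 10 are named. Srebf1, which encodes the lipogenic transcription factor SREBP1, held 1501, 1456 and 1212 CPM in IP and 516, 698 and 728 CPM in total RNA with Pdx1 siRNA, and 613, 622 and 613 against 619.6, 649 and 592 CPM with NT siRNA. Its ratio was 1.10 with Pdx1 and −0.01 with NT siRNA (difference 1.11, SE 0.17, edgeR adjusted p = 0.0116). C1qtnf4 was already higher in NT cells (0.80) and more so with Pdx1 siRNA (difference 0.99, edgeR adjusted p = 0.00631). Jund, a subunit of the AP-1 transcription factor, went from 0.15 to 1.01 and Uqcrq from 0.95 to 1.68. The histone variant gene H2aj (difference 1.11) and Prr7, a membrane adaptor gene (1.09), were higher by about the same amount. For Scand1 (1.15) and Cnbd2 (1.03), neighbours that share 40.5% and 29.7% of their exons with other genes, including each other, and for Il4i1b (1.00), 90.9% of whose exons are shared with Atf5, Nup62 and Tbc1d17, the reads could belong to a partner. Nkx2-2os, an antisense RNA at the Nkx2-2 locus, was at 0.28 with Pdx1 and −0.59 with NT siRNA (difference 0.86), and the sign of its Pdx1 value depended on scaling (−0.05 with library totals alone), while its call was lost when Pdx1 IP replicate 1 or 3 or total replicate 1 or 3 was left out. Without strand, its reads cannot be told from those of Nkx2-2.

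**Figure D5:**
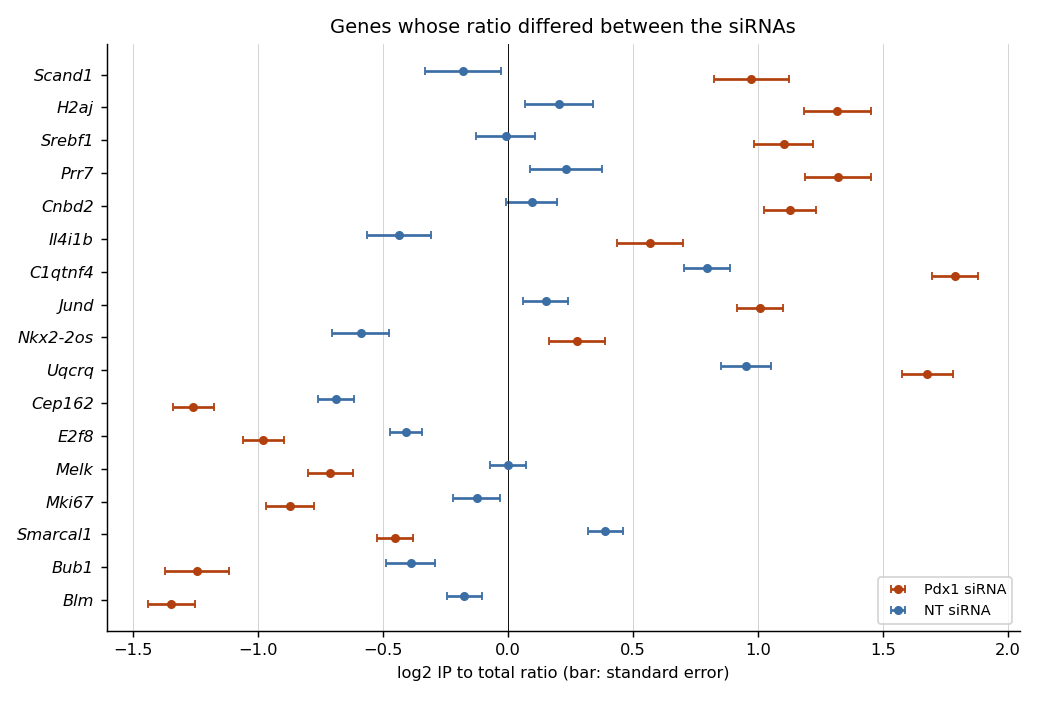
Log2 IP to total ratio with Pdx1 siRNA and with NT siRNA, each with its standard error, for the 17 named genes whose ratio differed between the siRNAs past the threshold. The lower 7 genes, from Blm to Cep162, have the lower ratio with Pdx1 siRNA, and the 10 above them the higher.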

How the data were processed

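RNA from 12 libraries was analysed, of which the 6 with Pdx1 siRNA form the comparison. The authors deposited 1 table of whole-number read counts per RefSeq transcript and library, with no normalization. TopHat2, featureCounts and build mm10 are named, without versions, per the submitters' processing notes. The handling of multiply matching reads and strand is not given in the sources used here. Gene symbols for 16838 of 17133 transcripts came from a RefSeq table whose assembly, GRCm38.p6, underlies mm10. The other 295 (0.577% to 0.834% of the counts per library) were not used. For 2634 genes with several transcripts the one with the most counts was kept, leaving 12643 genes. Every deposited transcript has at least 7 counts in each total library, while IP counts go down to 0, so transcripts absent from total RNA are not analysed here.

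All 12 libraries entered a single edgeR 4.0.16 quasi-likelihood fit (R 4.3.3) with a mean per group, TMM scaling and the default filter, which removed 0 genes. Benjamini-Hochberg adjustment covered all genes tested, and adjusted p-values under 0.05 were called. A standard error is the size of the log2 ratio over the root of its F statistic. CPM are TMM-scaled. Total counts of 29430690 to 45806807 per library make counting error small for all but the lowest genes. Scripts were first tested on simulated data.

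Coding length and other gene properties come from GENCODE M21. Near-identical copies were sought with minimap2 2.31: alignments of at least 100 bases and 95% identity outside the gene's locus covering 50% or more of the transcript marked a copy (449 genes), and under 10% none (11569 genes). Exon sharing was measured with bedtools 2.31.1. The 37 gene lists are described by counts and medians only. Members and lists were chosen with earlier results of these data known. Older symbols were accepted only where no gene carries them now.

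Named genes are 21 chosen by name, of which Gas5 was not measured. Added were the 10 highest and 10 lowest ratios among called genes of 5 CPM or more on average, without overlap or copy, and 5 and 5 with a copy. The rule also took up to 8 in each direction for the difference between siRNAs, the 10 most abundant genes and up to 6 list members with the smallest p. Unnamed gene models were passed over, and some genes taken are not reported here. Alternatives were other scalings, DESeq2 1.42.0, other filters, the replicate number as a block, each library left out, transcripts summed per gene, only genes without a copy, the mapping batch as a term and only the libraries compared. Library totals alone and centring on coding length were chosen after seeing the data.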

Additional observations from a re-analysis of the deposited data

Results flagged for a closer look

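A gene is listed here because the difference of its IP to total ratio between Pdx1 and NT siRNA passed edgeR's test (adjusted p under 0.05). For 17 named genes it did. Values are log2 differences, Pdx1 minus NT, each beside the number of 23 alternative settings in which the gene still passed. Blm (−1.17), Smarcal1 (−0.84), C1qtnf4 (0.99) and Cnbd2 (1.03) passed in all 23. Their adjusted p by edgeR or, in 1 setting, DESeq2 was at most 0.00624, 0.0166, 0.0327 and 0.0399. Jund (0.86) passed in 20 and Srebf1 (1.11) in 18.

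The other 11 passed in 11 to 15 of 23, and their adjusted p reached up to 0.297. Those with a lower ratio in Pdx1-depleted cells were Melk (−0.71, 15 settings), Mki67 (−0.75, 14), Bub1 (−0.85, 13), E2f8 (−0.57, 12) and Cep162 (−0.57, 11). Those with a higher ratio were Prr7 (1.09, 14), Scand1 (1.15, 13), H2aj (1.11, 13), Nkx2-2os (0.86, 13), Uqcrq (0.72, 12) and Il4i1b (1.00, 12). No cause was weighed.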

How the results depend on the processing

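Counts of called genes for the IP to total ratio stayed within 1.5 times of 9490 with Pdx1 siRNA (6522 with the mapping batch as a term, 9699 with the replicate block, 8944 to 9554 with 1 library left out, 9360 with DESeq2) and of 8810 with NT siRNA. Library totals alone moved the share of higher genes among those called from 48.4% to 27.3% with Pdx1 siRNA. The count for the difference between siRNAs, 29, did not stay: it was 52 with upper-quartile scaling, 54 with TMM without the insulin genes, 139 among genes without a copy, 5 with the batch term, 11 with library totals alone, 327 with DESeq2 and 4 to 571 with 1 library left out. With the replicate number as a block it was 373. The labels state no pairing, and the numbers were not taken to pair the samples. Deviations of IP and total libraries with the same number correlated at 0.155, −0.05 and 0.501 with Pdx1 siRNA and at 0.148, 0.207 and 0.03 with NT siRNA. Every IP library except Pdx1 IP replicate 2 correlated best with the total library of its own number. Pdx1 IP replicate 2 correlated best with total replicate 1 (0.241). Whether the samples are paired is therefore not known, and the count depends on it. The cause of these shifts was not tested.

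Of the 152 genes named with a ratio that passed, 135 kept call and direction in all 24 settings. With the batch term the ratio turned to 0.27 at Lars2, 0.21 at Pabpc1, 1.30 at Rpl32l, 0.37 at Rps15a-ps4, 0.014 at Ubb-ps, 0.82 at Rps7 and 0.76 at Rpl9. With library totals alone it turned to −0.048 at Nkx2-2os. List medians moved by more than the spread between replicates with the batch term for Golgi tethers (−0.46), cytosolic ribosomal proteins (1.13), immediate early genes (−0.22), mitochondrial carriers (0.028), other TOP mRNAs (0.81), p53 targets (0.12) and proteasome subunits (0.54). Without members that have a copy they moved for cytosolic ribosomal proteins (0.96), other islet endocrine markers (0.60), other TOP mRNAs (0.93), selenoproteins (0.77) and sterol and fatty acid synthesis (−0.21). The p53 median ranged from 0.0926 to 0.14 with 1 Pdx1 library left out. The step between outer quintiles by exon number went from −0.97 to −1.09 among genes of at least 5 CPM. With 1 Pdx1 library left out, that by coding length was −1.51 to −1.32, that by N-terminal hydrophobicity 0.122 to 0.268 (0.122 without Pdx1 IP replicate 3, against 0.20), and that by number of hydrophobic windows, −0.05, changed sign (−0.129 to 0.029, above 0 without Pdx1 total replicate 3). In at least 1 such removal the medians of these lists moved by over 1.5 times: ATF4 targets, ER chaperones, cytosolic chaperones, glycolysis, immediate early genes, lysosomal proteins, mitochondrial carriers, granule membrane proteins and transcripts with iron-responsive elements. Glycolysis (−0.0754 to 0.259) and cytosolic chaperones (−0.0985 to 0.0805) changed sign.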

Other observations

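Genes at least 8-fold lower in the IP RNA of Pdx1-depleted cells were not all low with NT siRNA. Of the 66 such genes, 35 are non-coding accessions, beside 585 of all 12643 genes. At 23 the NT ratio was also −1 or lower, and at 43 it was above −1. With the mapping batch as a term 43 of the 66 had a ratio above −1, while 14 were still called at −1 or lower, and 13 of those 14 had no near-identical copy. Copies without an annotated transcript are not seen by the search, and 6 of the 66 genes could not be looked up.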
